A study of Mus musculus with 15 samples.

Results

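Transcripts of Btg4 and of 9 genes of the CCR4-NOT deadenylase complex were followed in mouse zygotes and 2-cell embryos with and without maternal Usp16. The genes were chosen by name for their place in the decay of maternal transcripts, with earlier results of these data known. The rule itself uses no measured value. They are Btg4, Cnot1, Cnot2, Cnot3, Cnot4, Cnot6, Cnot6l, Cnot7, Cnot8 and Cnot10. All 10 were found among the 14392 genes of the expression table, and all 10 lay above the floor of the table in each of the 8 libraries.

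The study asked what oocytes and early embryos need USP16 for, an enzyme that removes ubiquitin from lysine 119 of histone H2A. For RNA-seq, zygotes and 2-cell embryos of both genotypes, called WT and cKO, gave 2 libraries a group, each made from 10 pooled embryos. The cKO embryos came from Usp16 fl/fl;Gdf9-Cre mothers and wild-type fathers, so the maternal allele was lost and an intact paternal allele was present, and the WT embryos came from wild-type mothers and fathers. Gdf9-Cre acts in the oocyte from the primordial follicle onward, and the mothers were superovulated juvenile females on a C57BL/6 background. The sources used here do not say whether the 2 libraries of a group came from different females, so the p-values measure the spread between these libraries, which may be technical.

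A poly(A) tail protects an mRNA and supports its translation, and CCR4-NOT is the main cytoplasmic enzyme complex that shortens it. CNOT1 is the scaffold. The catalytic subunits come in 2 pairs of related proteins, CNOT7 with CNOT8 and CNOT6 with CNOT6L, and each complex holds 1 protein of either pair. CNOT2 and CNOT3 form a module on the scaffold, CNOT10 binds it together with CNOT11, and CNOT4 is a ubiquitin ligase that associates with the complex. BTG4 is the BTG/TOB family member of oocytes. It binds CNOT7 or CNOT8 and brings the deadenylase to maternal mRNAs when the oocyte matures and the embryo takes over control from its mother.

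On mouse build mm9 the 10 genes lie on 7 chromosomes. Btg4 is a short gene of 3875 bases at chr9:50924106-50927980, and Cnot10 lies on the same chromosome at chr9:114494996-114549192. Cnot6l spans 93839 bases at chr5:96499352-96593190, and Cnot7 lies at chr8:41577894-41601201. RefSeq sequence before the start site, on build GRCm38.p6, was matched for 8 of the 10 genes with 14 start sites. The windows of Btg4 and Cnot6l are shown because their transcripts were the most reduced in cKO 2-cell embryos, and that of Cnot10 because its transcript rose most from zygote to 2-cell. Each is 250 bases, 5′ to 3′ on the gene's strand, ends at the base before the start site, and has each CG dinucleotide in capitals.
Btg4, chr9:51115751-51116000, plus strand: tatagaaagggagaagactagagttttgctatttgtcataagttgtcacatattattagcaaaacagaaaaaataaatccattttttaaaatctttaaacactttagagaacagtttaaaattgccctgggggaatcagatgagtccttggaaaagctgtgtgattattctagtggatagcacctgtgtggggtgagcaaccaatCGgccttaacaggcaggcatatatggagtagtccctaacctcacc
Cnot6l, chr5:96161991-96162240, minus strand: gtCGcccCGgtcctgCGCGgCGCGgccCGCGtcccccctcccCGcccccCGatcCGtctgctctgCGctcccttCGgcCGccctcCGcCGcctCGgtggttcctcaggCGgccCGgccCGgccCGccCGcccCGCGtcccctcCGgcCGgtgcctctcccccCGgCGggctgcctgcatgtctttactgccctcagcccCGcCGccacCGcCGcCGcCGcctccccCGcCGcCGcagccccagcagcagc
Cnot10, chr9:114640201-114640450, minus strand: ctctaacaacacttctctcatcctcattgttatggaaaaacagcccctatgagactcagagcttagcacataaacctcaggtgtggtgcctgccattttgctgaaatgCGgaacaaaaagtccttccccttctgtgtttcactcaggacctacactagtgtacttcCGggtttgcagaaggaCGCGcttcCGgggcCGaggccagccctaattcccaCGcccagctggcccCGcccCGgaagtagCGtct
CG reads the same on both strands, so 1 search covers both. The Btg4 window held 1 CG, and 18.8% of 32841 windows of all genes had as few. The Cnot6l window, the first listed of 3, held 37, and 2.2% of all windows had as many. Its other windows held 36 and 27. Cnot10 had 10, a number reached by 37.8% of all windows. The median of all windows was 6, with quartiles of 2 and 16. Cnot3 and Cnot4 had 22 each, Cnot6 had 29, the windows of Cnot2 had 10 and 3, and the 4 windows of Cnot8 ranged from 3 to 26.

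**Figure D1:**
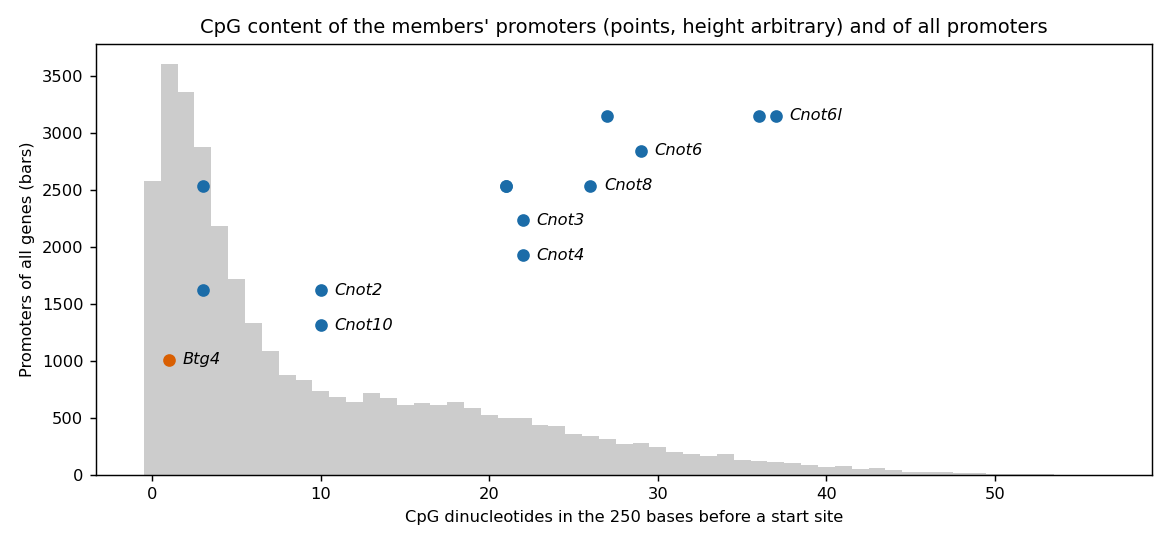
Number of CG dinucleotides (x axis) in the 250 bases before each start site, for all RefSeq promoters (grey bars, number of promoters on the y axis) and for the 14 start sites of 8 of the genes (points, placed at arbitrary heights, 1 row a gene; 2 of the Cnot8 points coincide). Btg4 (orange) sits at 1, left of the median of 6, and the 3 Cnot6l start sites sit at 27 to 37.

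Expression is given as FPKM, the number of sequenced fragments scaled to the exon length of the gene and to the number mapped in the library, so levels can be compared between genes per length. The authors set every value below 1 to 1. Smart-seq2 starts cDNA from the poly(A) tail, so shorter tails and fewer molecules cannot be told apart in these values. With pooled embryos, fewer embryos that hold a transcript and less of it in each embryo also cannot be told apart. A gene was called by the fold rule when the group means differed by more than 3-fold. It was called by limma when the adjusted p was under 0.05 over all 14392 genes, in 1 model of log2(FPKM + 1) over the 4 groups. Log2 fold changes are given with their standard error on that scale, which understates the change of low values. Each standard error pooled the spread of all 4 groups, so it is not that of the compared groups alone.

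Usp16 itself was at 184 and 187 FPKM in WT zygotes and at 16.8 and 22.0 FPKM in cKO zygotes. It was 9.58-fold lower by the means, with an adjusted p of 0.191 in limma. In cKO 2-cell embryos it was at 168 and 84.8 FPKM, against 168 and 183 in WT. The libraries of a group had Spearman correlations of 0.963 to 0.984 over all genes except the cKO 2-cell pair, at 0.886. In that pair 1912 genes differed by more than 3-fold between the libraries, against 20 to 199 in the other groups. Cnot1 and Cnot3 were among them, at 6.89-fold and 5.24-fold. The summed FPKM was 770989 in the cKO 2-cell library 2 and 547752 to 593317 in the others. Oocyte and zygote marker genes, 10 of 10 in the table, summed to 10639 to 12257 FPKM in zygotes. In 2-cell embryos they summed to 3788 to 4189 in WT and to 6544 to 9619 in cKO, and Dppa3 alone made up 2958 and 2472 FPKM of the WT sums and 5888 and 8774 FPKM of the cKO sums. Without Dppa3 the order turned, to 1231 and 1316 FPKM in WT and 656 and 844 FPKM in cKO. Of the 10 markers, 5 were lower and 1, Dppa3, higher in cKO than in WT 2-cell embryos by limma. Over all genes 24.6% were lower and 6.16% higher. The list median was -0.87, against -0.30 over all genes. Of 12 markers of 2-cell embryos, 8 were in the table, with sums of 9.45 to 13.5 FPKM in zygotes. Their 2-cell sums were 613 to 859 in WT and 207 to 291 in cKO. Of 12 cumulus and granulosa cell markers, 5 were in the table, summing to 22.0 to 49.7 FPKM over all libraries. Cyp19a1 made up 22.3 to 26.7 FPKM in zygotes and fell to 1.00 to 1.78 in 2-cell embryos, while Nr5a2 was at 3.87 to 4.63 FPKM in zygotes and rose to between 15.8 and 45.6 FPKM, each called in both genotypes. None of the 5 was called by limma between 2-cell genotypes. By the fold rule 1 of 5, Tnfaip6, was lower in cKO, where 13.5% of all genes were. Tnfaip6 was at 1.83 and 7.45 FPKM in WT and at 1.00 and 1.32 FPKM in cKO 2-cell embryos. Fshr, Amh, Has2, Ptx3, Inha, Inhba and Star were not among the genes of the table. The part of these differences in the members' values was not tested.

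In zygotes no member was called between the genotypes by either rule. The limma fit pooled the spread of all 4 groups, and Usp16, 9.58-fold lower by the means, was not called either. The lack of a limma call thus does not show equal levels. By the fold rule 0 members were lower and 0 higher, where 0.0486% of all genes were lower and 0.104% higher. By limma the calls over all genes were 0% lower and 0.0208% higher, with 84 and 324 genes at an unadjusted p under 0.05 in those directions, and every member had an adjusted p of 1.

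At the 2-cell stage, the FPKM of Btg4, Cnot6l, Cnot7 and Cnot6 was lower in cKO than in WT embryos. These were 4 of 10 members lower in limma, where 24.6% of all genes were lower. None was higher, where 6.16% of all genes were. By the fold rule Btg4 and Cnot6l were lower, 2 of 10 against 13.5% of all genes, and 0 were higher, against 2.84%. The median log2 fold change was -0.76 over the members and -0.30 over all genes. Scaling the libraries by the median ratio moved the median of all genes to 0. The share of calls that were lower went from 80.0% to 54.9%. By limma 2 of 10 members, Cnot6l and Cnot7, were then lower, against 1747 of the 14392 genes. None was higher, where 1437 genes were. Fitting the model to the cKO and WT 2-cell libraries alone left 0 of the members called. The limma adjusted p was then 0.0598 for Cnot6l, 0.0839 for Cnot6, 0.0918 for Cnot7 and 0.112 for Btg4. The share of all genes called is not given for that fit or for the fits below without 1 library. The counts of members in these fits thus cannot be set against it. Without either 1 of the WT 2-cell libraries, Cnot6l and Cnot7 were called. Without the cKO 2-cell library 1, 7 members were lower, with Cnot1, Cnot3 and Cnot4 added, and without library 2, Cnot1 was called higher.

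From zygote to 2-cell in WT embryos, the FPKM of Btg4, Cnot6l and Cnot4 fell and that of Cnot10 and Cnot8 rose. In limma these were 3 lower and 2 higher of 10, against 15.5% and 34.2% of all genes. The fold rule gave 4 lower, with Cnot3 added, and 1 higher, Cnot10, against 8.78% and 26.0% of all genes. The all-gene median was 0.27 and became 0.03 with median-ratio scaling. That scaling raised the share of calls that were lower, over all genes, from 31.1% to 43.0%. By limma it left 5 of 10 members lower, with Cnot3 and Cnot7 added, against 2736 of the 14392 genes. Cnot10 and Cnot8 were still higher, where 3623 genes were. In cKO embryos limma found 6 members lower, Btg4, Cnot3, Cnot4, Cnot6, Cnot6l and Cnot7, and Cnot10 and Cnot8 higher, against 27.1% and 24.6% of all genes. By the fold rule 5 were lower, all but Cnot6 of these, and Cnot10 was higher, against 19.2% and 22.8% of all genes.

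**Figure D2:**
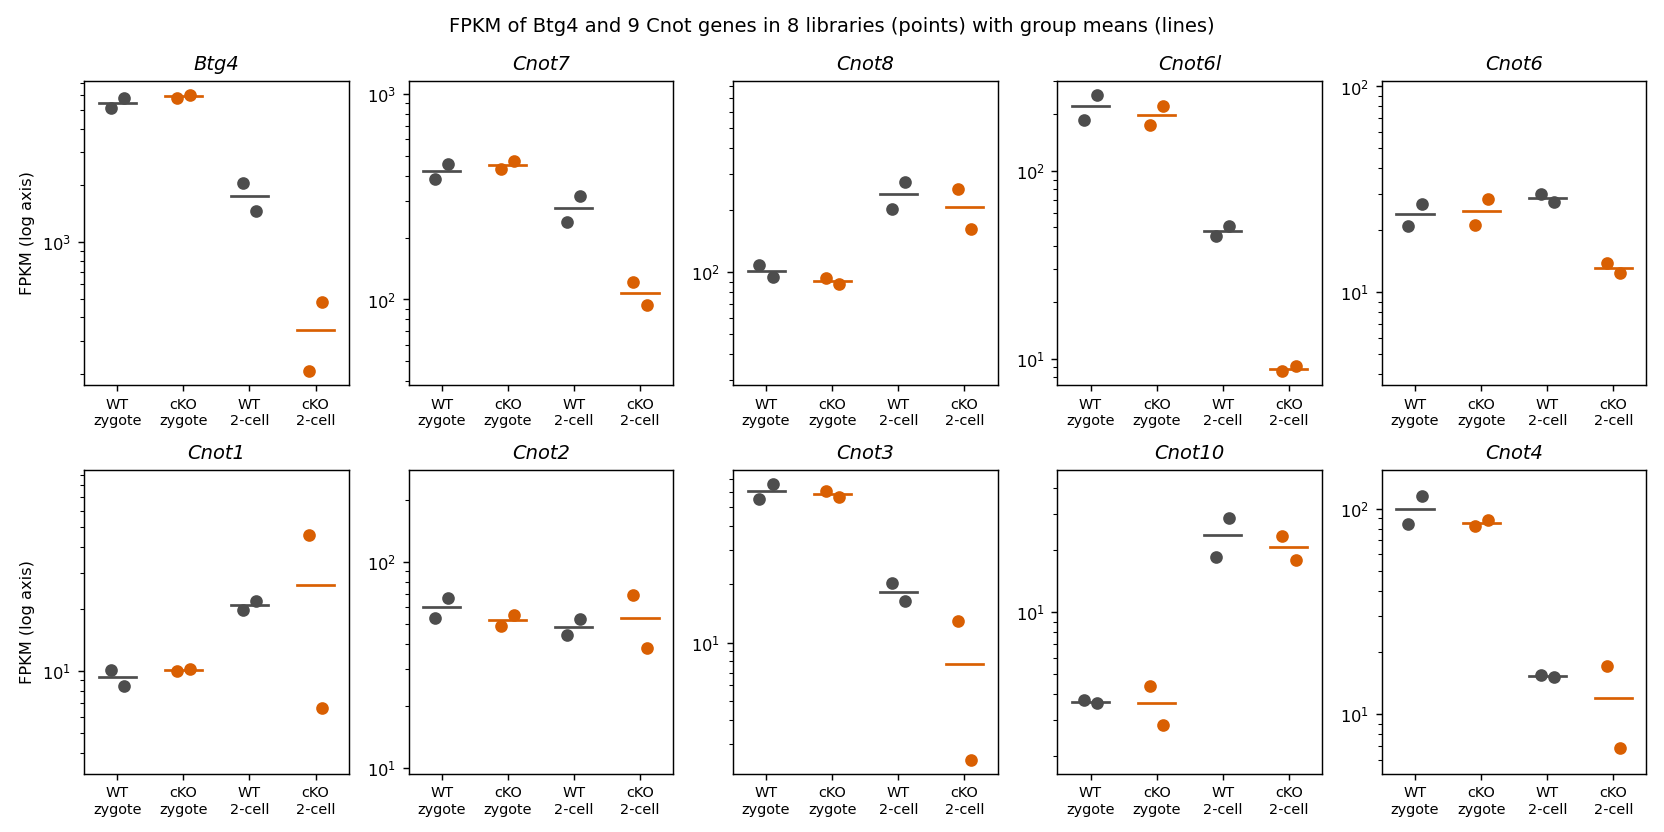
FPKM (log axis, with its own range in each panel) of the 10 genes in the 8 libraries (points; grey WT, orange cKO) with the mean of each group (lines). Zygote groups lie side by side for each gene, Btg4, Cnot6l, Cnot7 and Cnot6 are lower in both cKO 2-cell libraries than in both WT ones, and Cnot1 and Cnot3 are spread widely in the cKO 2-cell pair.

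Btg4, the adaptor, was by far the most abundant of the 10 in zygotes and in WT 2-cell embryos. In cKO 2-cell library 1 it was below Cnot8, which was at 253 FPKM. Btg4 was at 5126 and 5780 FPKM in WT zygotes and at 5843 and 6041 FPKM in cKO zygotes. Both latter libraries were slightly above both WT ones, by 1.09-fold in the means. These levels ranked Btg4 between 7 and 9 among all genes of the 4 zygote libraries. At the 2-cell stage it was at 2058 and 1457 FPKM in WT and at 208 and 483 FPKM in cKO embryos. Every zygote library was above every 2-cell library, and both WT 2-cell libraries were above both cKO ones. In rank, it was at 15 and 27 in the WT 2-cell libraries and at 552 and 287 in the cKO ones.

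The order of the group means was cKO zygote (5942 ± 139 FPKM, SD, n = 2), WT zygote (5453 ± 463), WT 2-cell (1757 ± 425) and cKO 2-cell (345 ± 194). The first 2 were not separated by limma (adjusted p of 1). From zygote to 2-cell Btg4 fell 3.10-fold in WT (log2 fold change -1.65 ± 0.44, limma adjusted p = 0.0221) and 17.2-fold in cKO embryos (-4.23 ± 0.44, adjusted p = 0.000502). Between the 2-cell groups it was 5.09-fold lower in cKO (-2.45 ± 0.44, limma adjusted p = 0.0105). The pooled error is the same in each comparison, while the Btg4 libraries lay 2.32-fold apart in cKO 2-cell embryos. In the other groups they lay 1.03- to 1.41-fold apart. The WT call was lost when any 1 of the WT or cKO zygote or WT 2-cell libraries was left out, with the adjusted p up to 0.158. The 2-cell call was lost without either WT 2-cell library, up to 0.0840, and with median-ratio scaling, at 0.0749.

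Among the catalytic subunits, Cnot7 was the most abundant in zygotes, with 383 and 457 FPKM in WT and 431 and 472 FPKM in cKO. The zygote groups overlapped. At the 2-cell stage it was at 239 and 317 FPKM in WT and at 122 and 93.7 FPKM in cKO embryos, and these groups did not overlap. It was 2.58-fold lower in cKO 2-cell embryos than in WT (-1.35 ± 0.24, limma adjusted p = 0.0105). Its difference between stages in WT, 1.51-fold in the means, did not pass limma (adjusted p = 0.0859), and in cKO it fell 4.19-fold (-2.07 ± 0.24, limma adjusted p = 0.000785).

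Cnot8, the close relative of Cnot7, was at 109 and 94.3 FPKM in WT zygotes and at 93.3 and 87.6 FPKM in cKO zygotes. At the 2-cell stage it was at 203 and 274 FPKM in WT and at 253 and 163 FPKM in cKO embryos. All 2-cell libraries were above all zygote libraries, and the 2-cell genotypes overlapped. Cnot8 rose from zygote to 2-cell in WT (1.21 ± 0.28, limma adjusted p = 0.0124) and in cKO (1.16 ± 0.28, limma adjusted p = 0.0133). The WT call was lost without WT 2-cell library 2 or WT zygote library 2. The cKO call was lost without either cKO zygote library (highest adjusted p 0.0776), with sum scaling and in a fit of the cKO groups alone.

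Cnot6l, a nuclease subunit known for its part in maternal mRNA decay in the oocyte and zygote, was at 187 and 255 FPKM in WT zygotes and at 176 and 222 FPKM in cKO zygotes. At the 2-cell stage it was at 44.8 and 51.2 FPKM in WT and at 8.56 and 9.08 FPKM in cKO embryos. Both steps separated the libraries without overlap, and the cKO 2-cell pair lay within 1.06-fold of each other. Cnot6l fell 4.60-fold from zygote to 2-cell in WT (-2.17 ± 0.23, limma adjusted p = 0.000610) and 22.6-fold in cKO (-4.34 ± 0.23, limma adjusted p = 7.67e-05). Between 2-cell groups it was 5.44-fold lower in cKO (-2.32 ± 0.23, limma adjusted p = 0.00208), and this call was kept whichever library was left out.

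Its relative Cnot6 was at 20.9 and 26.9 FPKM in WT zygotes and at 21.2 and 28.3 FPKM in cKO zygotes. The 2-cell levels were 30.2 and 27.4 FPKM in WT and 13.8 and 12.5 FPKM in cKO embryos. The cKO 2-cell libraries were the lowest of all 8. The gene was 2.19-fold lower in cKO than in WT 2-cell embryos (-1.07 ± 0.23, limma adjusted p = 0.0174), a call lost without either WT 2-cell library and, at an adjusted p of 0.120, with median-ratio scaling. In cKO embryos Cnot6 fell from zygote to 2-cell (-0.85 ± 0.23, limma adjusted p = 0.0215). That call was lost without cKO 2-cell library 2 or cKO zygote library 2, up to an adjusted p of 0.124, with median-ratio scaling and in a fit of the cKO groups alone.

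Summed over these 4 nuclease genes, the FPKM averaged 766 in zygotes of either genotype. It averaged 593 in WT and 338 in cKO embryos at the 2-cell stage. The cKO 2-cell libraries had 398 and 278, below the 516 and 670 of the WT ones.

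Of the scaffold and its modules, Cnot1 was at 10.1 and 8.48 FPKM in WT zygotes and at 9.95 and 10.3 FPKM in cKO zygotes. It was at 19.8 and 21.8 FPKM in WT 2-cell embryos, and the cKO 2-cell libraries had 45.5 and 6.61 FPKM, the highest and the lowest of all 8. No comparison of Cnot1 passed limma with all 8 libraries in the fit. Without cKO 2-cell library 1 it was called lower than in WT 2-cell embryos, and without library 2 higher.

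Cnot2 was the steadiest member, with 53.2 and 67.0 FPKM in WT zygotes and 49.0 and 55.3 FPKM in cKO zygotes. It was at 44.2 and 52.6 FPKM in WT 2-cell and at 68.8 and 38.0 FPKM in cKO 2-cell embryos. Only the WT stages did not overlap, by a narrow margin, and no comparison of Cnot2 passed limma.

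Cnot3, the partner of Cnot2 in the complex, was at 55.2 and 66.4 FPKM in WT zygotes and at 60.6 and 56.4 FPKM in cKO zygotes. The 2-cell levels were 20.4 and 16.3 FPKM in WT and 13.0 and 2.47 FPKM in cKO embryos. Zygote and 2-cell libraries did not overlap, and the 2-cell genotypes did not overlap either. From zygote to 2-cell Cnot3 fell in cKO (-3.09 ± 0.61, limma adjusted p = 0.00598), a call lost in a fit of the cKO groups alone (0.0837). In WT it was 3.31-fold lower by the means, past the fold rule but not limma (adjusted p = 0.0615). The 2-cell difference between genotypes had an adjusted p of 0.119 in limma.

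Cnot10 was the lowest member in zygotes, at 3.74 and 3.61 FPKM in WT and at 4.39 and 2.82 FPKM in cKO. It reached 18.6 and 28.6 FPKM in WT 2-cell embryos and 23.6 and 17.9 FPKM in cKO ones. Every 2-cell library was above every zygote library, and genotypes overlapped at each stage. Cnot10 rose 6.42-fold in WT (2.37 ± 0.31, limma adjusted p = 0.00142) and 5.75-fold in cKO (2.25 ± 0.31, limma adjusted p = 0.00142).

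Cnot4, the ubiquitin ligase, was at 83.8 and 116 FPKM in WT zygotes and at 82.7 and 88.1 FPKM in cKO zygotes. Its levels were 15.6 and 15.2 FPKM in WT 2-cell and 17.2 and 6.87 FPKM in cKO 2-cell embryos. The stages were far apart and the genotypes overlapped. Cnot4 fell 6.49-fold from zygote to 2-cell in WT (-2.60 ± 0.40, limma adjusted p = 0.00270) and 7.09-fold in cKO (-2.85 ± 0.40, limma adjusted p = 0.00156).

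**Figure D3:**
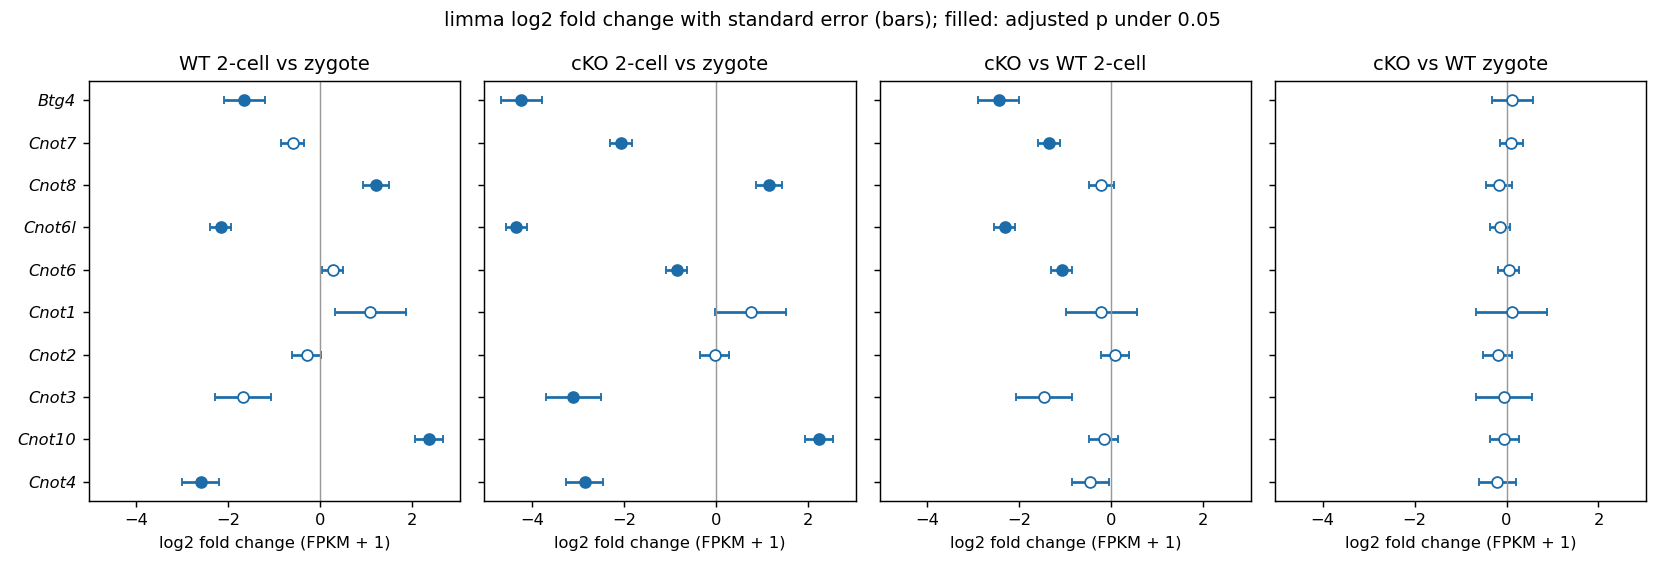
Log2 fold change of FPKM + 1 (x axis) of each gene in the 4 comparisons, 1 panel each, as the limma estimate (point) with its standard error (bar), 2 libraries a group; filled points have an adjusted p under 0.05. In the panel of cKO against WT zygotes every point is open and near 0, and in that of cKO against WT 2-cell embryos the filled points are Btg4, Cnot7, Cnot6l and Cnot6, all left of 0.

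The order of the genes by mean level was the same in zygotes of both genotypes and differed at the 2-cell stage. In zygotes it was Btg4, Cnot7, Cnot6l, Cnot8, Cnot4, Cnot3, Cnot2, Cnot6, Cnot1 and Cnot10. In WT zygotes the pairs Cnot8 with Cnot4 and Cnot3 with Cnot2 overlapped. In WT 2-cell embryos Cnot7 and Cnot8 followed Btg4 and overlapped with each other, and Cnot2 and Cnot6l overlapped after them. In cKO 2-cell embryos Cnot8 was second, overlapping with Btg4, and was above Cnot7 in both libraries. Cnot6l came second to last, inside the spread of Cnot3.

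Ratios within a library do not depend on how libraries were scaled against each other. Cnot7 made up 77.9% and 82.9% of the summed FPKM of Cnot7 and Cnot8 in WT zygotes, and 82.2% and 84.4% in cKO zygotes. In 2-cell embryos it made up 54.0% and 53.6% in WT and 32.5% and 36.5% in cKO embryos. The share thus passed from mostly Cnot7 to near balance in WT 2-cell embryos, and to mostly Cnot8 in cKO ones, and only the zygote genotypes overlapped.

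The share of Cnot6l in the sum of Cnot6 and Cnot6l was 90.0% and 90.4% in WT zygotes and 89.3% and 88.7% in cKO zygotes. Among 2-cell libraries it was 59.8% and 65.1% in WT and 38.2% and 42.1% in cKO embryos. Both cKO 2-cell libraries were below both WT ones, and these below all zygotes.

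Btg4 was 92.9 and 86.3 times the median FPKM of the 9 Cnot genes in WT zygotes and 96.3 and 107 times in cKO zygotes. In WT 2-cell libraries it was 68.2 and 50.9 times, and in cKO 2-cell libraries 8.82 and 38.7 times. The cKO 2-cell libraries were the lowest and lay apart from each other. With 2 libraries against 2, a two-sided exact permutation test cannot give a p under 0.333, and each of the separated contrasts of these 3 ratios had that value. Reads of the related genes could be divided between them only where sequences match, and their coding sequences were 70.9% identical for Cnot7 and Cnot8 and 73.3% for Cnot6 and Cnot6l. Neither pair shared a stretch of 50 bases in annotated transcripts, and the longest shared coding run was 20 bases.

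**Figure D4:**
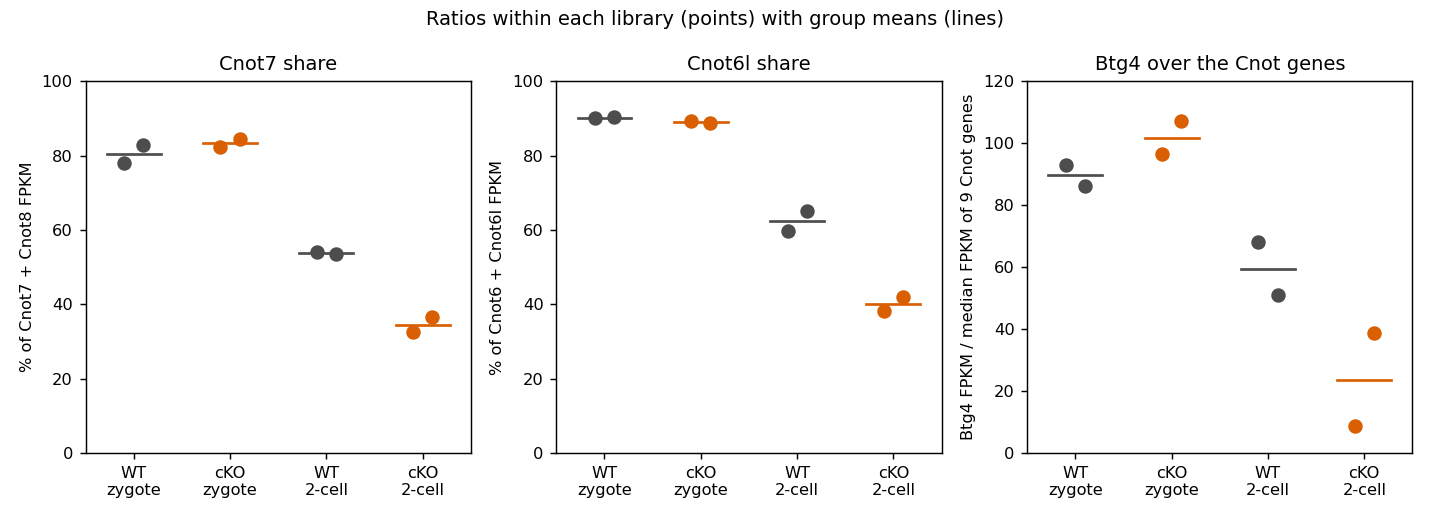
Within-library ratios for the 8 libraries (points; grey WT, orange cKO) with group means (lines): the share of Cnot7 in Cnot7 and Cnot8 and of Cnot6l in Cnot6 and Cnot6l (percent of summed FPKM), and Btg4 over the median of the 9 Cnot genes (ratio of FPKM). In each panel the cKO 2-cell libraries are the lowest, at 32.5% and 36.5%, at 38.2% and 42.1%, and at 8.82 and 38.7.

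Cnot6l and Cnot7 responded to maternal genotype unequally in zygotes and 2-cell embryos. The interaction of genotype and stage was -2.18 ± 0.32 for Cnot6l (limma adjusted p = 0.0166) and -1.46 ± 0.35 for Cnot7 (0.0469). For Btg4 it was -2.57 ± 0.63, with an adjusted p of 0.0501. These were 2 members lower and 0 higher, against 10.2% and 1.58% of all genes. The all-gene median of the interaction was -0.34 and became -0.03 with median-ratio scaling. That scaling took the share of calls that were negative from 86.7% to 59.4%. It left neither member called, where 657 of the 14392 genes had a negative call and 449 a positive one. Leaving out either zygote library of either genotype also left 0 members called. Without cKO 2-cell library 1 the count was 5, with Btg4, Cnot1 and Cnot3 added, and without library 2 it was 4, with Btg4 and a positive value for Cnot1 added. Without WT 2-cell library 2 only Cnot6l was called.

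Of 3 other subunits of the complex, 0 were called between the 2-cell genotypes, where 24.6% of all genes were lower and 6.16% higher. From zygote to 2-cell, 2 of 3 fell in each genotype, against 15.5% of all genes in WT and 27.1% in cKO. The number that rose was 0 in WT and 1 in cKO, against 34.2% and 24.6% of all genes. Cnot11, listed under an older name as D1Bwg0212e, is the binding partner of Cnot10 and moved the opposite way between stages. It was at 51.7 and 37.4 FPKM in WT zygotes and at 3.31 and 4.12 FPKM in WT 2-cell embryos, a fall of 3.26 ± 0.28 on the log2 scale (limma adjusted p = 0.000314). In cKO embryos it fell by 2.99 ± 0.28 (limma adjusted p = 0.000346). Tnks1bp1, which also associates with the complex, fell in both genotypes, from 3.08 to 3.64 FPKM in zygotes to at most 1.37 FPKM. Cnot9, listed as Rqcd1, rose in cKO (0.75 ± 0.22, limma adjusted p = 0.0275) and was not called in WT, and its interaction of genotype and stage was not called either.

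The other BTG and TOB family members, which also bind the Cnot7 type of subunit, were below Btg4 in every library. They came nearest in cKO 2-cell library 1, where Tob1 was at 88.8 FPKM and Btg4 at 208 FPKM. Of 5 genes, 4 rose from zygote to 2-cell in WT, with a list median of 1.30 against 0.27 over all genes, and 2 rose in cKO, where 34.2% and 24.6% of all genes rose. Tob1 went from 1.04 and 1.46 FPKM to 48.0 and 69.9 FPKM in WT (4.72 ± 0.43, limma adjusted p = 0.000382), and rose in cKO (4.23 ± 0.43, limma adjusted p = 0.000457). Btg1 rose in both genotypes (1.37 and 1.91), and Tob2 in WT (1.30). Between 2-cell genotypes Btg2 and Btg3 were lower in cKO, 2 of 5 against 24.6% of all genes, with Btg2 at 11.7 and 16.9 FPKM in WT and at 4.70 and 5.35 FPKM in cKO (-1.32 ± 0.31, limma adjusted p = 0.0223). Btg3 was listed at the floor of 1 in all but the WT 2-cell libraries, at 2.62 and 2.84 FPKM there.

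Of 26 RNA-binding adaptors and tail modifiers, 4 were lower and 3 higher in cKO than in WT 2-cell embryos, and the list median of -0.32 was close to that of all genes. These are 15.4% and 11.5% of the list, against 24.6% and 6.16% of all genes. Nanos2, a partner of the complex in germ cells, was at 27.5 and 17.0 FPKM in WT and at 3.0 and 2.43 FPKM in cKO 2-cell embryos (-2.61 ± 0.27, limma adjusted p = 0.00244). Tnrc6c, which links microRNA silencing to the complex, was lower (-1.20 ± 0.29, limma adjusted p = 0.0262). Ythdf2, the reader of methylated adenosine that recruits CCR4-NOT, was higher, with 86.0 and 86.5 FPKM in WT and 259 and 174 FPKM in cKO (1.29 ± 0.23, limma adjusted p = 0.00960).

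Between stages the poly(A)-binding proteins of the oocyte and of somatic cells moved in opposite directions. Pabpn1l went from 51.0 and 63.8 FPKM to 4.67 and 2.53 FPKM in WT (-3.70 ± 0.39, limma adjusted p = 0.000653), and Pabpc1 from 1.56 and 1.00 FPKM to 90.9 and 65.5 FPKM (5.11 ± 0.32, limma adjusted p = 0.000139). In cKO embryos Pabpn1l and Pabpc1l fell by 4.52 and 3.58 on the log2 scale and Pabpc1 rose by 5.77. Over the list, 4 fell and 9 rose in WT, 15.4% and 34.6% of it, which is near the 15.5% and 34.2% of all genes. In cKO 9 fell and 10 rose, 34.6% and 38.5% against 27.1% and 24.6%. Zfp36, which binds AU-rich elements, rose in WT (3.08 ± 0.25, limma adjusted p = 0.000262).

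Of 23 genes of other deadenylases, decapping and 5′ to 3′ decay, 4 were lower and 2 higher in cKO than in WT 2-cell embryos, with a list median of -0.42. The share lower was 17.4%, below the 24.6% of all genes, and the share higher was 8.70% against 6.16%. The 4 lower genes included both subunits of the PAN2-PAN3 deadenylase, which trims long tails before CCR4-NOT. Pan2 was at 22.3 and 22.1 FPKM in WT and at 5.21 and 5.14 FPKM in cKO 2-cell embryos (-1.91 ± 0.17, limma adjusted p = 0.00164). Pan3 was at 83.7 and 101 FPKM and at 29.2 and 17.0 FPKM (-2.0 ± 0.30, limma adjusted p = 0.00586). Dcp2, the decapping enzyme, was at 18.5 and 29.2 FPKM and at 5.37 and 3.06 FPKM (-2.25 ± 0.31, limma adjusted p = 0.00474). For all 3 the cKO libraries lay below the WT ones, and the interaction with stage passed limma, with values of -1.76, -1.81 and -2.45 and adjusted p of 0.0142, 0.0443 and 0.0247.

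From zygote to 2-cell, 6 genes of that list fell and 1 rose in WT, with a median of -0.40. These are 26.1% and 4.35% of the list, against 15.5% and 34.2% of all genes. In cKO 12 fell and 3 rose, with a median of -1.15, or 52.2% and 13.0% against 27.1% and 24.6%. Edc4 and Dcp1a, partners of the decapping enzyme, fell in WT by 2.47 and 2.17 on the log2 scale, and Lsm4 of the LSM ring rose by 2.08. Of 17 genes of the RNA exosome and its cofactors, the 3′ to 5′ pathway, 2 fell and 9 rose in WT, 11.8% and 52.9% against 15.5% and 34.2% of all genes. In cKO 3 fell and 9 rose, 17.6% and 52.9% against 27.1% and 24.6%. Dis3, a nuclease of the exosome, went from 1.41 and 1.28 FPKM to 26.3 and 23.5 FPKM in WT (3.47 ± 0.29, limma adjusted p = 0.000281), and Exosc5 and Exosc6 rose by 3.29 and 3.71. Between 2-cell genotypes 2 were lower and 5 higher, 11.8% and 29.4% against 24.6% and 6.16% of all genes, with a list median of 0.52 against -0.30 over all genes. Ttc37 was lower (-1.54 ± 0.26, limma adjusted p = 0.00905), and Wdr61, which works beside it in the Ski complex, was higher, with 40.7 and 32.4 FPKM in WT and 93.5 and 129 FPKM in cKO (1.57 ± 0.26, limma adjusted p = 0.00780).

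The genes whose pattern over the 8 libraries was most like that of Btg4, by Pearson's r of log2(FPKM + 1) among 7273 genes above 10 FPKM in at least 2 libraries, were Xlr3a, Taf9b and Sytl4 (r of 0.997 each), and Gm4566 and Rfx5 (0.996 each). Of these, Taf9b had 120 and 119 FPKM in WT zygotes and 130 and 138 FPKM in cKO zygotes. Its 2-cell levels were 52.2 and 36.6 FPKM in WT and 7.54 and 12.4 FPKM in cKO embryos. Its steps had the same order as those of Btg4. Among the members r with Btg4 was 0.98 for Cnot6l, 0.93 for Cnot7, 0.85 for Cnot3, 0.84 for Cnot4 and 0.72 for Cnot6. It was 0.05 for Cnot2, -0.58 for Cnot1, -0.79 for Cnot8 and -0.83 for Cnot10. These are descriptions over 8 points that share a stage or a genotype, with no test.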

How the data were processed

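RNA-seq was analysed in 8 libraries, 2 a group, each from 10 embryos amplified by Smart-seq2. Not analysed here were 7 ChIP-seq samples of H2AK119ub1. After trimming, reads were mapped by the authors to mm9 with TopHat2 2.1.1, and they deposited FPKM values per gene from Cufflinks 2.2.1, with values below 1 set to 1 and genes never above 1 removed. The paper calls the values normalized, and neither the further step nor the gene annotation is given in the sources used here. FPKM carries no counts, so depth is unknown and precision rests on 2 libraries a group.

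Groups came from the sample labels. The genes and lists were chosen with earlier results of these data known. Group means were compared with the 3-fold rule of the study. log2(FPKM + 1) was fitted with limma 3.58.1 (R 4.3.3), with a trend and no filter. The model held all 4 groups and left 4 degrees of freedom, and p was adjusted over 14392 genes after Benjamini and Hochberg. Within-library ratios were compared by a two-sided exact permutation test (scipy 1.17.1). Named genes were all members, Usp16, up to 3 called genes a list and comparison with the largest log2 fold change, and the 5 genes most correlated with Btg4. Older symbols were matched through RefSeq synonyms. Coordinates are of GENCODE M1 on mm9. The calculations were tested on simulated data. Alternatives were the pseudocount, a filter on low values, median-ratio and sum scaling, a fit of the compared groups alone, a replicate block, other fold thresholds and leaving out each library. A crossed replicate block and the summary of all-gene medians were added after seeing the data. Replicate numbers were not shown to pair the samples.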

Additional observations from a re-analysis of the deposited data

Results flagged for a closer look

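The effect of maternal Usp16 loss differed between zygotes and 2-cell embryos, by the interaction term, for 2 of the 10 genes. Both values were negative, where 10.2% of all genes had a negative call and 1.58% a positive one. The difference was -2.18 on the log2 scale for Cnot6l and -1.46 for Cnot7. For Btg4 it was -2.57 and not called, at a limma adjusted p of 0.0501. With median-ratio scaling neither Cnot6l nor Cnot7 was called. The Cnot6l levels of the genotypes overlapped in zygotes and were 5.44-fold apart by the means in 2-cell embryos, and those of Cnot7 were 2.58-fold apart. Over all alternatives the adjusted p in limma ranged from 0.0144 to 0.0827 for Cnot6l and from 0.0230 to 0.162 for Cnot7.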

How the results depend on the processing

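The log2 fold changes of the members called by limma, and of Btg4 in every comparison, were recomputed, 21 values in all. The filter, the fit of the compared groups alone and the replicate blocks cannot move a difference between 2 group means. Leaving out a library of another group cannot move it either. Under those settings only the p could change, so a reversal was not possible. In 312 recomputed values 0 reversed, 267 kept their side of the threshold, 40 lost the call and 5 gained it. Cnot1, not called with all libraries and so not among them, was called lower in cKO 2-cell embryos without cKO 2-cell library 1 and higher without library 2. With a 2-fold threshold, 5 members were lower in cKO than in WT 2-cell embryos, and 3 rose by the fold rule from zygote to 2-cell in WT and 3 in cKO. When every library had to differ by 3-fold, 2 members were lower in WT 2-cell embryos than in zygotes. The share of all genes is not given for these 2 fold rules or for a fit of the compared groups alone. The counts of members under them thus cannot be set against it. With median-ratio scaling, limma called 2 members lower in cKO than in WT 2-cell embryos, 5 lower from zygote to 2-cell in WT, and 0 in the interaction. Of the 14392 genes, 1747 and 2736 were lower in the first 2 of these comparisons. In the interaction 657 genes had a negative call and 449 a positive one. With sum scaling, 1 member was higher in cKO 2-cell embryos than in cKO zygotes, where 3094 of the 14392 genes were. In a fit of the compared groups alone, 1 member was also higher there. That fit called 0 members lower in cKO than in WT 2-cell embryos. Taken over the mean of the Cnot genes, Btg4 was 49.2 (WT) and 54.9 (cKO) times as high in zygotes. At the 2-cell stage it was 22.7 times as high in WT and 7.86 times in cKO, where the ratio to the median was 23.7. The cause was not tested.

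Libraries with the same replicate number deviated together in zygotes (r = 0.50 over genes) and not in 2-cell embryos (r = -0.24), so the numbers may not pair the samples. With the replicate block 1 member passed in the interaction, Cnot6l, and with the crossed block 2 did. The share of all genes called is not given with either block, and these counts cannot be set against it. No other count of members moved by more than 1.5 times under the block.

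Leaving out 1 library gave 2 to 4 members lower by the fold rule and 2 to 7 by limma in cKO against WT 2-cell embryos, with 0 to 1 higher by limma. From zygote to 2-cell in WT it gave 2 to 4 lower by the fold rule, 2 to 4 lower and 1 to 3 higher by limma. In cKO it gave 1 to 2 higher by the fold rule, 5 to 7 lower and 1 to 3 higher by limma. The interaction gave 0 to 5. Btg4 over the median of the Cnot genes ranged from 86.3 to 92.9 and 96.3 to 107 in WT and cKO zygotes and from 50.9 to 68.2 and 8.82 to 38.7 in WT and cKO 2-cell embryos. Where 1 library was left, it was assumed to vary like the other groups. The counts of members without 1 library have no share of all genes beside them and cannot be set against it. With 2 libraries a group and no counts, smaller differences were not detectable.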
